A study of Mus musculus with 21 samples.

Results

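The genes described here are 45 regulators and effectors of the cell division cycle, picked by symbol from a table of 55573 mouse genes: 27 that act in G1 or at the start of DNA synthesis (G1/S) and 18 that act in late S phase, G2 or mitosis (G2/M). All 45 passed the filter on low counts that left 15432 genes for testing. They were measured by RNA sequencing in 21 libraries of E0771 cells, a mouse breast cancer line, with 3 libraries in each of 7 groups. Every line carried GFP. They comprised untreated parental cells (E0771GFP), the same cells with an empty vector, cells overexpressing the zinc finger repressor ZBTB18, the overexpressing cells with a doxycycline-inducible TGF-β receptor TGFBR2 given doxycycline (1 mg/mL as the label has it) and either vehicle or TGF-β1 (2 ng/mL), and the lines M11GFP (M11) and M12GFP (M12), which were grown out from spontaneous lung metastases. Each group is a single line, so a difference between lines and an effect of what was put into them cannot be told apart. The labels name no length of treatment and no batch, and do not say whether the 3 replicates were separate cultures, so the p-values measure the spread between these libraries, which may be technical.

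A cell that commits to division first makes D-type cyclins, which with CDK4 and CDK6 phosphorylate the retinoblastoma protein and release E2F transcription factors. E2F1 to E2F3 then switch on cyclin E, the origin licensing factors, the MCM helicase that unwinds DNA and the enzymes that supply nucleotides, while E2F7 and E2F8 repress the same genes later in S phase. Genes of G2 and mitosis, such as cyclin B, CDK1, Aurora kinases and the mitotic kinesins, are switched on later by a complex that contains B-MYB or FOXM1 helped by the factor NF-Y at CCAAT boxes, and are held down outside that window by the DREAM complex at promoter elements called CHR. In breast tumours, MKI67 protein is the standard stain for dividing cells.

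The libraries held 24208564 to 90518866 counts each. Parental replicate 1 stood apart in that 14% of its counts lay on 1 gene, the ribosomal RNA-like Gm42418, against at most 0.0918% in the other libraries. Zbtb18 itself was measured at 25.1 ± 0.91 CPM (counts scaled to library size, mean ± SD of 3 libraries) with empty vector and 113 ± 9.64 with overexpression, and stood at 29.5 ± 1.4 in the parental line, 82.9 ± 6.49 and 95.2 ± 4.3 in the receptor line with vehicle and with TGF-β1, 34.7 ± 4.23 in M11 and 59.2 ± 9.96 in M12. Tgfbr2 stood at 13.8 ± 0.805 CPM in the parental line, 26.6 ± 0.439 with empty vector and 1.74 ± 0.253 with ZBTB18. In the receptor line it was at 588 ± 32.7 with vehicle and 604 ± 17.4 with TGF-β1. M11 and M12 had 21.35 ± 1.05 and 19.3 ± 1.84. Of 12 epithelial markers only 4 passed the filter: group means of Krt8 ran from 154 to 342 CPM, whereas Epcam stayed at or below 3.23, Cdh1 below 0.1 and the mesenchymal intermediate filament Vim at 2409 to 5174. Among the defining epithelial markers, Krt8 was thus the one well above 0. The mesenchymal list was mixed too, with 4 of 6 markers past the filter. Besides Vim, the genes Zeb1, Zeb2 and Twist1 were at 13.4 CPM or more in every library. Fn1 stayed at or below 0.387 CPM and Cdh2 at or below 0.0814. Of the blood and lung epithelial lists, Cd3e, Tyrobp, Sftpa1, Scgb1a1 and Nkx2-1 had 0 reads in all 21 libraries, which allows up to 0.00294 CPM over the pooled counts, but other markers of blood, endothelium and fibroblasts were present and are given with the metastasis lines.

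Promoters of the 2 classes hold different words, and 4 of them are shown because their genes carry the differences described below. The stretches are the 160 bases before the RefSeq transcription start site on build GRCm38.p6, given 5′ to 3′ on the gene's strand, from Mcm5 (chr8:75109349-75109508, plus strand), Mcm6 (chr1:128359706-128359865, minus strand), Cdk1 (chr10:69352913-69353072, minus strand) and Kif11 (chr19:37376222-37376381, plus strand). Capitals mark every match, on either strand, to an E2F-like word (TTTGGCGC, TTTCCCGC, TTTGCCGC or TTTCGCGC), to CCAAT or to the CHR word TTTGAA, and overlapping matches run together.
Mcm5: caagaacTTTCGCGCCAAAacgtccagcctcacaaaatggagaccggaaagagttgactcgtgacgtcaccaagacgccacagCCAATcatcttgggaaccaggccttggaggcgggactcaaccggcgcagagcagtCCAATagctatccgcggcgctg
Mcm6: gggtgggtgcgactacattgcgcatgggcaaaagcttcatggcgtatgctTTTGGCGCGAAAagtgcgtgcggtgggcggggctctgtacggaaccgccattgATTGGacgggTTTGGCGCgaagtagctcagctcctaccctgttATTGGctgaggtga
Cdk1: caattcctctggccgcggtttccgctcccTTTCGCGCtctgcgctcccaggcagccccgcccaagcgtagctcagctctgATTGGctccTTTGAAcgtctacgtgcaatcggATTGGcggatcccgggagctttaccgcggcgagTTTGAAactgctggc
Kif11: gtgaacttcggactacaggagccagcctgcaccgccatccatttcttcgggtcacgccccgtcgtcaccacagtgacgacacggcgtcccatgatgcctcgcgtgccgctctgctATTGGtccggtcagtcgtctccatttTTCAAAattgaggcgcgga
The helicase genes Mcm5 and Mcm6 hold overlapping E2F-like words and CCAAT boxes and no CHR word in these bases. Cdk1 holds 1 E2F-like word, 2 CCAAT boxes and 2 CHR words, and Kif11 holds 1 CCAAT box and 1 CHR word. RefSeq windows of 250 bases before to 50 after the start were found for 36 of the 45 genes. An E2F-like word was present in 11 of 23 G1/S genes (47.8%) and 1 of 13 G2/M genes (7.69%), against 2.6% of all 27025 genes with a window. The CHR word was present in 9 of 13 G2/M genes (69.2%) and 5 of 23 G1/S genes (21.7%), against 20.2% of all genes. CCAAT was present in 12 of 13 (92.3%) and 16 of 23 (69.6%), against 41.1% of all genes. The word ACATCTG, which lies within the published ZBTB18 binding motif, was found in 1 of the 36 genes, E2f2 (2.78%, against 5.1% of all genes). Start sites differ between annotations. In GENCODE vM21, Mcm5, Mcm6 and Kif11 begin after the RefSeq start used here, and Cdk1 begins within its printed bases. These matches describe letters only.

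All the machinery was expressed in every group. On the TPM scale, which corrects for transcript length and so allows genes to be compared, the highest means over the 21 libraries were those of Cdk4 (525.9), Cdk1 (450.1) and the DNA topoisomerase gene Top2a (291.6). The lowest were those of the E2F genes E2f7 (10.3), E2f2 (11.7) and E2f3 (15.6). Of the 45 genes, 44 differed somewhere among the 7 groups in edgeR's quasi-likelihood F-test with Benjamini-Hochberg adjustment at 0.05, a test passed by 92.7% of all genes, and all adjusted p-values below come from that fit unless another tool is named. The exception was Pcna, the sliding clamp of DNA polymerase (adjusted p = 0.124), whose highest and lowest group means differed 1.18-fold, although 1 of the 7 comparisons taken singly, M11 against the parental line, did call it. At the other end stood E2f2, with a 3.58-fold range. A lower level in every cell and fewer cells in the phase that makes the transcript cannot be told apart in RNA from whole cultures.

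**Figure D1:**
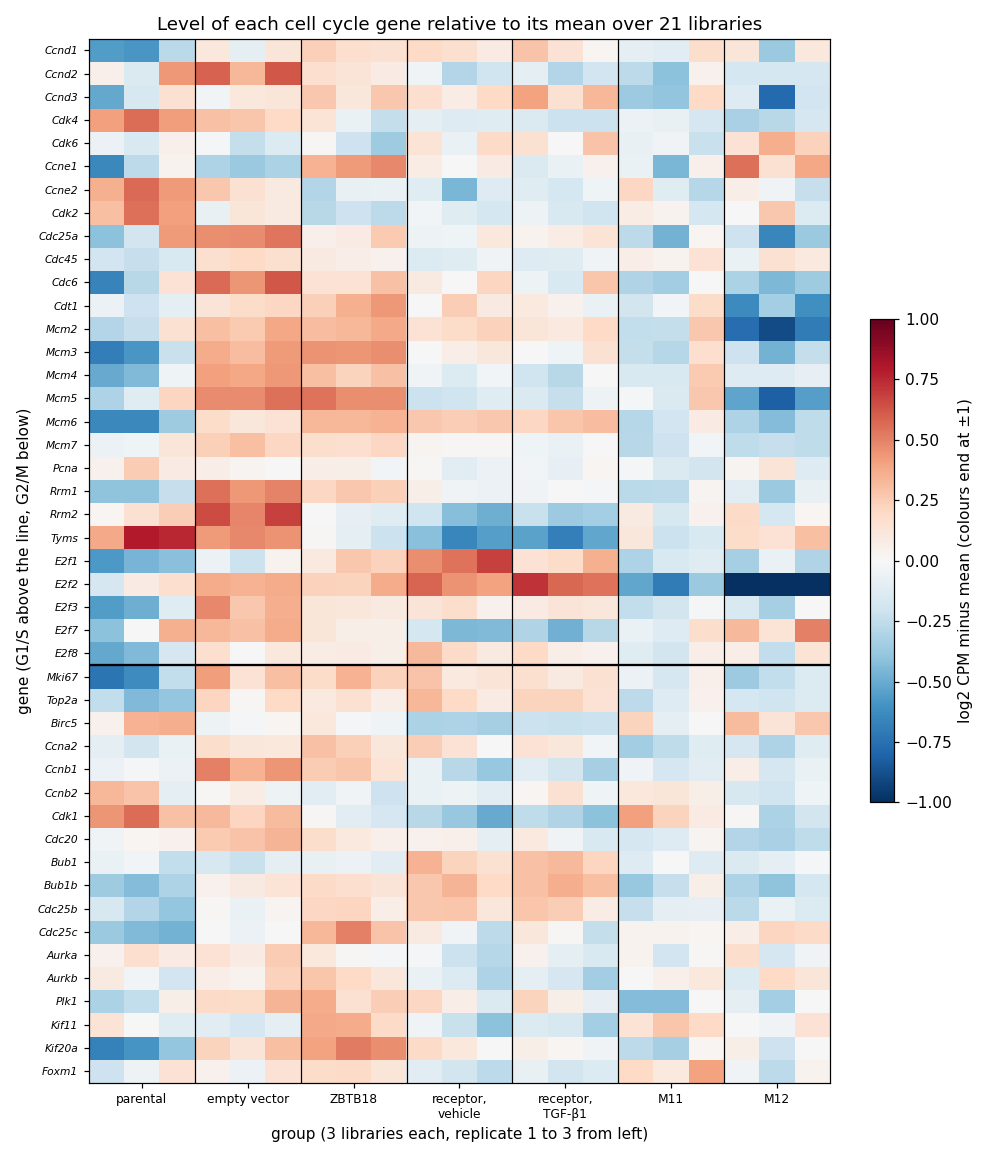
Level of each of the 45 genes in each of the 21 libraries, as log2 CPM minus the gene's own mean over all libraries (blue lower, red higher, colours end at 1 in both directions), with G1/S genes above the black line and G2/M genes below it. The parental columns are mostly blue and the empty vector columns mostly red for the Mcm genes, and E2f2 is deep blue in the 3 M12 libraries.

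ZBTB18 overexpression against the empty vector went with changes in single genes of the cycle, and the 2 classes did not move as blocks. Of the 27 G1/S genes 7 fell and 2 rose, and of the 18 G2/M genes 1 fell and 2 rose. These 12 of 45 are to be read against 28.4% of all genes past the threshold in either direction (14% higher, 14.5% lower). The libraries of the 2 groups did not overlap for 26 genes, with ZBTB18 above for 10 and below for 16, which held for 24.9% and 24.7% of all genes. The median log2 fold change was -0.09 over the G1/S genes, 0.05 over the G2/M genes and 0.01 over all genes.

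The falls included 3 of the 4 genes for nucleotide supply and the clamp. Rrm2, the regulated subunit of ribonucleotide reductase, which makes the deoxynucleotides, was measured at 359, 319 and 366 CPM in the empty vector libraries and at 228, 216 and 209 with ZBTB18. Every overexpression library lay below every vector library, and the gene fell by 0.68 on the log2 scale (SE 0.0997, adjusted p = 2.41e-05). Tyms, the thymidylate synthase that makes the T nucleotide, read 53.4, 55.5 and 54.2 CPM with the vector and 40.0, 37.1 and 34.3 with ZBTB18, again without overlap (log2 fold change -0.55, SE 0.105, adjusted p = 0.000393). Rrm1, the large subunit of the reductase, fell by 0.26 (adjusted p = 0.0354), a call kept in only 6 of 14 other settings. Pcna was at 221 to 232 CPM in the vector group and 217 to 232 with ZBTB18.

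Cyclins and kinases of G1 moved in opposite directions. Ccne1, a cyclin E that activates CDK2 at the entry to S phase, read 46.8, 44.7 and 46.6 CPM with the vector and 73.9, 78.0 and 80.7 with ZBTB18, and rose by 0.75 (SE 0.133, adjusted p = 0.000188). The related cyclin Ccne2 fell by 0.31 (adjusted p = 0.0454), the kinase Cdk2 by 0.30 (adjusted p = 0.0227), the D-type cyclin Ccnd2 by 0.39 (adjusted p = 0.0215) and the D cyclin kinase Cdk4 by 0.31 (adjusted p = 0.00723). The call of Ccne2 was kept in 6 of 14 other settings. It was lost on both TPM scales and in all 6 fits that left out 1 library, and also with chromosomes centred (adjusted p = 0.0767). The calls of Ccnd2 and Cdk2 were each kept in 8 of 14. Among the E2F genes only E2f1, an activator, passed (40.4 ± 3.49 against 49.0 ± 3.08 CPM, log2 fold change 0.28, adjusted p = 0.0281), a call kept in 7 of 14. None of the 6 Mcm genes passed edgeR's test over the 21 libraries, DESeq2 or limma on TPM, and 1 (Mcm6) was at an unadjusted p under 0.05. With edgeR on the 6 libraries alone, Mcm6 (0.19, adjusted p = 0.00778) and Mcm4 (-0.14, adjusted p = 0.036) did pass. Mcm3, for instance, stood at 310 ± 12.4 CPM with the vector and 328 ± 3.02 with ZBTB18.

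Of the G2/M genes, Kif11, the kinesin that pushes spindle poles apart, read 187, 180 and 190 CPM with the vector and 264, 262 and 231 with ZBTB18, with no overlap (log2 fold change 0.44, SE 0.094, adjusted p = 0.00117). Cdc25c, a phosphatase that activates CDK1, read 45.2, 43.4 and 45 CPM against 57.0, 64.2 and 55.1, and rose by 0.40 (adjusted p = 0.00247). Cdk1, the mitotic kinase, went the other way, from 291, 269 and 289 to 234, 216 and 207 CPM (log2 fold change -0.37, adjusted p = 0.00672). Mki67 was at 168 ± 16 and 164 ± 9.54 CPM, and Top2a at 907 ± 70.6 and 881 ± 28.1. Cdc25a (-0.36, adjusted p = 0.089) and Cdc6 (-0.35, adjusted p = 0.0756) did not pass, and the other genes short of the threshold lay between -0.26 for E2f3 and 0.25 for Kif20a.

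A total of 6 of these calls, those of Rrm2, Tyms, Cdk1, Ccne1, Cdc25c and Kif11, were kept under all 14 other settings of scaling, filter, test and left-out library, but Cdk1 (-0.13, adjusted p = 0.391) and Kif11 (0.14, adjusted p = 0.308) did not pass when each chromosome was centred, a fit described with the chromosomes. The count of falls rests on individual libraries: it was 5 without empty vector replicate 1, 4 without empty vector replicate 3, 5 without overexpression replicate 1 or 2 and 3 without overexpression replicate 3, in place of 8.

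Among 74 further cell cycle genes, 4 of 10 tested inhibitors and pocket proteins passed (3 higher, 1 lower), as did 9 of 25 other G1/S genes (3 higher, 6 lower), 3 of 25 other G2/M genes (3 higher) and 1 of 12 genes of the DREAM, MYB and MYC group (higher). The retinoblastoma gene Rb1, whose protein holds E2F in check, rose from 12.3 ± 1.34 to 27.5 ± 3.52 CPM (log2 fold change 1.15, adjusted p = 1.98e-06). Cdkn1a, the p21 inhibitor of cyclin-dependent kinases, fell from 112.5 ± 9.94 to 65.7 ± 15.4 CPM (-0.78, adjusted p = 0.00261). Also higher were Dscc1 (0.53), a factor of sister chromatid cohesion, and Wee1 (0.52), the kinase that restrains CDK1, and also lower were the uracil glycosylase Ung (-0.59) and the origin gene Orc1 (-0.52).

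**Figure D2:**
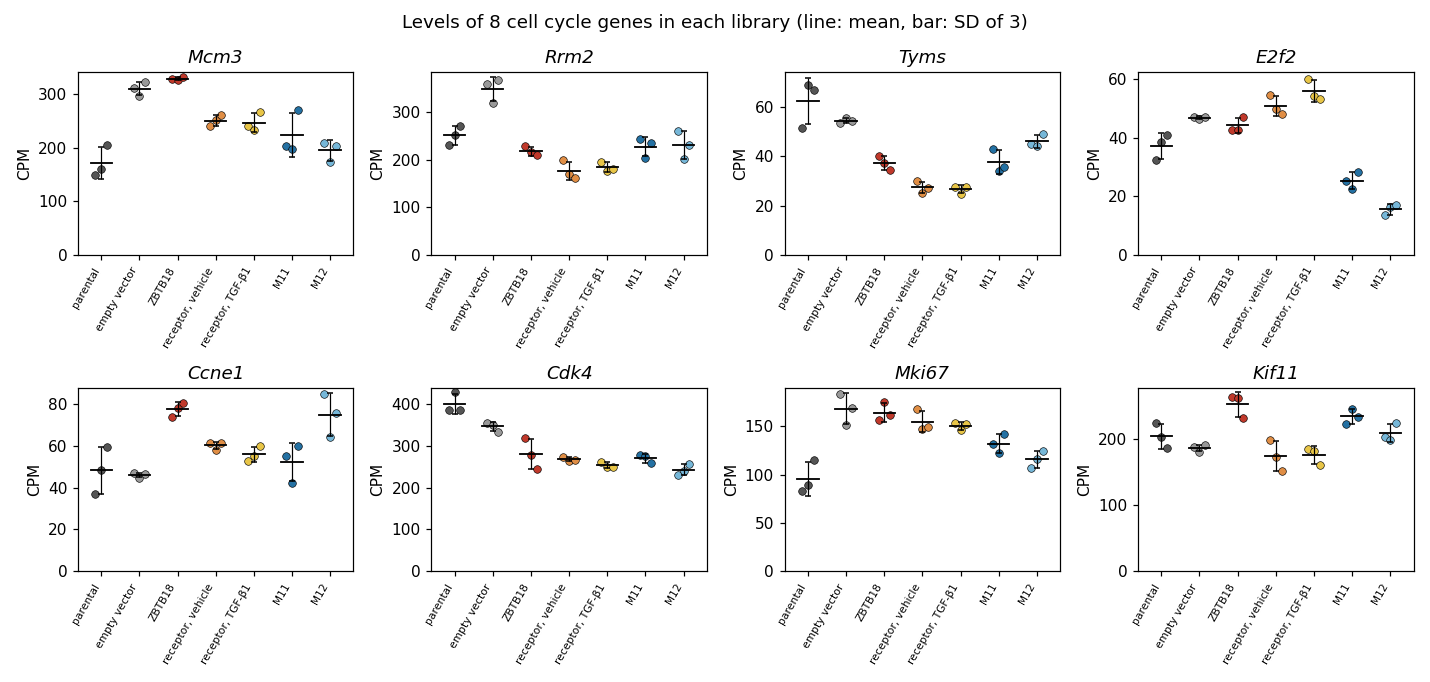
Level in CPM of 8 of the genes in every library (points), with the mean (line) and SD (bar) of the 3 libraries of each group and an axis that starts at 0. Rrm2 and Tyms lie lower with ZBTB18 than with the vector, Ccne1 and Kif11 lie higher, and E2f2 is lowest in M12.

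The vector control itself differed from the parental line by more of these genes than any other comparison: 28 of 45 rose and 4 fell in the empty vector cells, where 28.9% of all genes rose and 29% fell (58% in all). The median log2 fold change was 0.39 over G1/S genes and 0.26 over G2/M genes, against -0.02 over all genes. The vector libraries lay above all parental ones for 27 of the 45 genes and below for 4, against 31.2% and 29.9% of all genes. Mitochondrial genes took 2.41% to 2.56% of the counts in the parental libraries and 0.861% to 1.07% in the vector libraries, and their part in the result was not tested.

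All 6 subunits of the MCM helicase rose. Mcm3 read 149, 160 and 206 CPM in the parental libraries and 310, 297 and 322 with the empty vector, and rose by 0.85 (SE 0.117, adjusted p = 4.36e-06). Mcm4 (0.73), Mcm6 (0.69), Mcm5 (0.55), Mcm2 (0.43) and Mcm7 (0.24) followed, and each of the 6 had vector libraries above all parental ones. The 3 origin genes moved likewise, led by Cdc6, which loads the helicase onto origins and read 26.9, 35.3 and 47.4 CPM in the parental libraries and 63.3, 58.3 and 65.8 with the vector (log2 fold change 0.78, adjusted p = 0.000155). Cdc45 rose by 0.36 and Cdt1 by 0.29.

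Rrm1 rose from 283, 283 and 320 CPM to 550, 506 and 528 (0.84, SE 0.0899, adjusted p = 2.72e-07) and Rrm2 by 0.47, whereas Tyms and Pcna did not pass. Of the E2F genes 4 rose: E2f3 from 39.1 ± 6.56 to 65.7 ± 4.83 CPM (0.75, adjusted p = 3.83e-06), the repressor E2f8 by 0.46, E2f1 by 0.41 and E2f2 by 0.33. Ccnd1 (0.51), Ccnd2 (0.39) and the phosphatase Cdc25a (0.50) rose as well. In the G2/M class, Mki67 rose from 82.6, 88.7 and 116 CPM to 184, 152 and 169 (0.82, adjusted p = 2.31e-06), and Kif20a, a kinesin of cytokinesis, from 121, 128 and 148 to 226, 211 and 238 (0.76, adjusted p = 1.78e-06). Top2a, Ccnb1, Bub1b, Cdc25c, Plk1, Cdc20, Cdc25b and Ccna2 rose by 0.25 to 0.50. The genes short of the threshold ranged from -0.20 for Tyms to 0.31 for E2f7 (adjusted p = 0.0552).

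The 4 falls were small: Cdk2 by 0.38, Ccne2 by 0.28, the inner centromere and survival gene Birc5 by 0.27 and Cdk4 by 0.21, and on the TPM scale Cdk2 (0.02), Birc5 (0.26) and Cdk4 (0.12) had the opposite sign. That scale moved the median of all genes by more than 0.1: with log2(TPM + 1) it was 0.21 for all genes and 0.61 for the 45, the calls over all genes split as 78.4% higher where counts gave 49.9%, and 36 of the 45 were higher and 0 lower. The parental libraries spread widely in the G1/S class, with a median deviation of -0.31 in replicate 1, -0.19 in replicate 2 and 0.12 in replicate 3 (all genes: 0.02, 0.01 and 0.00). Without parental replicate 1, the library with the Gm42418 excess, 27 rose and 3 fell. The falls numbered 2 without parental replicate 2, empty vector replicate 2 or empty vector replicate 3.

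In the wider list, of 25 other G1/S genes 12 rose and 7 fell, with a median log2 fold change of 0.01 where the 27 G1/S genes had 0.39, and of 25 other G2/M genes 14 rose and 3 fell (median 0.18). In the DREAM, MYB and MYC group 4 of 12 rose and 4 fell (median -0.04), and 4 of 10 inhibitors and pocket proteins rose and 3 fell (median 0.06). Those that rose most were Cenpf, a kinetochore protein (105.9 ± 22.1 to 293 ± 48.3 CPM, 1.47), Cdkn1a (45.2 ± 9.01 to 112.5 ± 9.94 CPM, 1.32) and the checkpoint mediator Clspn (1.13). The lowest were Cdkn1c (p57, -1.39, under 1 CPM in every group), Cdkn1b (p27, 140.9 ± 25.3 to 66.9 ± 3.48 CPM, -1.08) and the centromeric histone Cenpa (-1.05). Cdkn2a and Cdkn2b, the INK4 inhibitors of CDK4 and CDK6, had 0 reads in all 21 libraries.

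**Figure D3:**
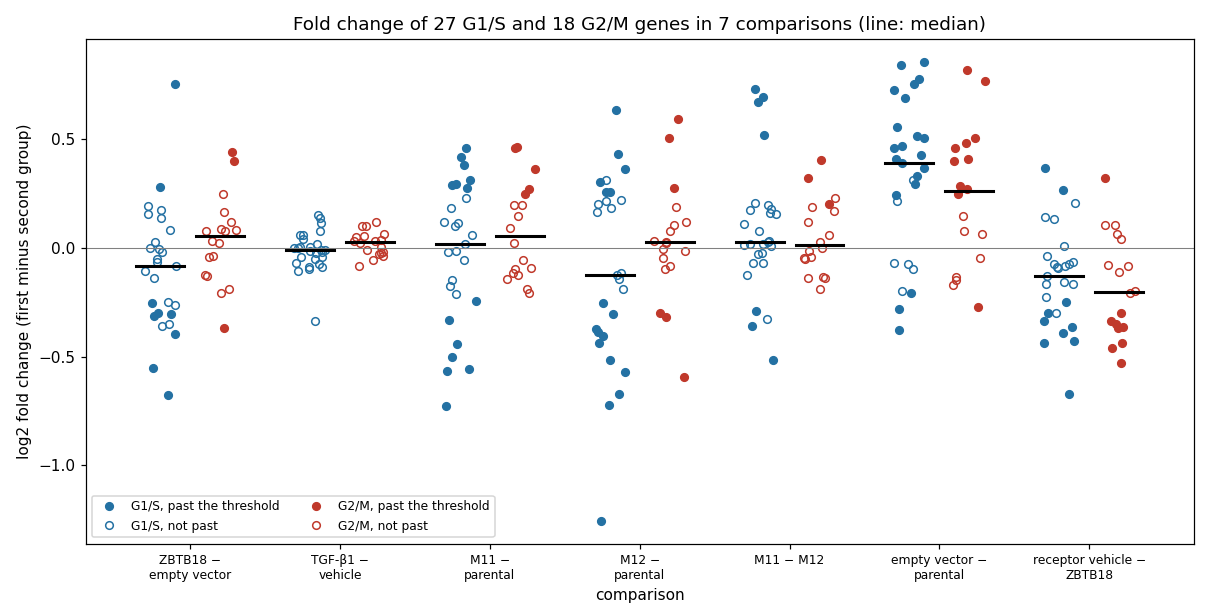
Log2 fold change (first group minus second) of the 27 G1/S genes (blue) and 18 G2/M genes (red) in the 7 comparisons, filled where the edgeR test was passed, with the class median as a line. The medians stand at 0.39 and 0.26 for empty vector minus parental, at -0.13 and -0.20 for receptor line with vehicle minus ZBTB18, and at -0.01 and 0.03 for TGF-β1 minus vehicle.

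The receptor line with doxycycline and vehicle had lower levels of 16 of the 45 genes than the ZBTB18 line without the receptor and higher levels of 3, where 19.3% of all genes were lower and 19.5% higher (38.8% in all). The libraries lay above without overlap for 6 genes and below for 22 (28.3% and 28.9% of all genes). It was the comparison in which most G2/M genes fell, 8 of 18 (1 rose), beside 8 of 27 G1/S genes (2 rose). The class medians were -0.20 and -0.13, and the median of all genes was 0.00. The same ZBTB18 libraries stand on the other side in the comparison with the empty vector. The mitochondrial share was 0.586% to 0.734% in the receptor libraries with vehicle and 1% to 1.09% in the ZBTB18 libraries, and the summed level of 7 fibroblast markers was 154 to 163 against 377 to 467 CPM. Their part in the result was not tested.

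Mcm5 moved most, from 300, 284 and 284 CPM in the ZBTB18 libraries to 177, 179 and 189 in the receptor line (log2 fold change -0.67, SE 0.114, adjusted p = 8.42e-05). Kif11 went from 264, 262 and 231 to 198, 173 and 152 CPM (-0.53, adjusted p = 0.000132), Ccnb1, the B cyclin of CDK1, from 291, 295 and 268 to 233, 201 and 187 (-0.46, adjusted p = 0.000244), and Cdc25c from 57.0, 64.2 and 55.1 to 48.2, 44.1 and 37.6 (-0.44, adjusted p = 0.000783). None of these 4 overlapped between the groups. Tyms (-0.44), E2f7 (-0.43), the chromosomal passenger kinase Aurkb (-0.37), Foxm1 (-0.35) and Birc5 (-0.34) fell too, as did Mcm3 (-0.39), Ccne1 (-0.37), Kif20a (-0.36), Mcm4 (-0.34), Cdk1 (-0.30), Rrm2 (-0.30) and Rrm1 (-0.25). Those that rose were E2f1, from 49.0 ± 3.08 to 63.2 ± 4.77 CPM (0.37), the checkpoint kinase Bub1, from 158 ± 2.42 to 197 ± 13.3 (0.32), and Cdk6 (0.27). Genes that did not pass ranged from -0.30 for Ccnd2 to 0.20 for E2f2. The calls of Aurkb, Birc5, Bub1, Ccnb1, Cdc25c, Foxm1, Kif11, Mcm5 and Tyms were kept under all 14 settings.

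Cdkn1a was the wider list's largest difference here, at 54.8, 58.9 and 83.2 CPM in the ZBTB18 libraries and 182, 161 and 209 in the receptor line (1.49, adjusted p = 2.77e-06), followed among the rises by Myc (0.57) and the cytokinesis gene Anln (0.29). The INK4 inhibitor Cdkn2c (-0.88), the DNA polymerase subunit Pola1 (-0.71) and the thymidine kinase Tk1 (-0.64) fell most. By class, 10 of 25 other G1/S genes and 7 of 25 other G2/M genes fell and 0 and 1 rose, 4 of 10 inhibitors and pocket proteins passed (1 higher, 3 lower), and so did 5 of 12 in the DREAM, MYB and MYC group (1 higher, 4 lower).

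TGF-β1 is known to arrest many epithelial cells in G1, and the comparison with vehicle asks what it does in the receptor line. Without a replicate block, no cycle gene of the 45 passed edgeR's test after TGF-β1, where 1.26% of all genes were higher and 0.654% lower (1.91% in all). The TGF-β1 libraries lay above without overlap for 2 genes and below for 3, against 14.1% and 13.6% of all genes. At an unadjusted p under 0.05 there was 1, and DESeq2 called 1 and limma on TPM 0. The gene was E2f1, at 58.9, 62.3 and 68.4 CPM with vehicle and 47.2, 48.4 and 54.6 with TGF-β1, groups that do not overlap (log2 fold change -0.34, SE 0.0919, adjusted p = 0.0653). It passed with DESeq2 (adjusted p = 0.0186), with edgeR on the 6 libraries alone (0.0193) and with the replicate number as a block (0.0255), the last of which applies since same-numbered libraries of these groups deviated together. The next largest differences were those of Ccnd3 (0.15, SE 0.168), E2f2 (0.14, SE 0.099) and Ccnb2 (0.12, SE 0.0897). Mcm3 stood at 250 ± 9.79 and 246 CPM, Ccnb1 at 207 ± 23.3 and 211, and Mki67 at 155 ± 11.1 and 150.4 ± 3.97. The class medians were -0.01 for G1/S and 0.03 for G2/M. In the wider list, Rbl1, the pocket protein p107, rose from 56.0 ± 2.89 to 73.4 ± 4.32 CPM (0.39, adjusted p = 0.0207) and Lin54, a DNA-binding subunit of the DREAM complex, from 34.6 ± 2.29 to 42.4 ± 2.63 (0.30, adjusted p = 0.0366). None of the 25 other G1/S or 25 other G2/M genes passed with edgeR, and 5 and 2 of them were at an unadjusted p under 0.05.

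In both metastasis lines the number of cycle genes past the threshold lay near the share over all genes. In M12, 9 of the 45 genes were higher and 14 lower, where 24.9% of all genes were higher and 25.2% lower (50.1% in all), and 11 of the 14 falls were G1/S genes. In M11, 12 were higher and 7 lower, where the shares over all genes were 20.8% and 20% (40.7% in all), and all 7 falls were G1/S genes. The rises held G1/S genes too: Ccnd1, Cdc45, E2f1 and E2f8 in both lines. Mcm3, Mcm4 and Mcm6 also rose in M11, and Ccne1 and Cdk6 in M12. The median log2 fold change was 0.02 over G1/S and 0.06 over G2/M genes in M11, and -0.12 and 0.02 in M12. Over all genes it was -0.0006 in M11 and -0.01 in M12. Whether the lines differ in how far they depart from the parental cells was not tested. Both comparisons use the same 3 parental libraries, so their values are set side by side and their likeness is not counted. Without overlap, M12 lay above for 7 genes and below for 12 (24.3% and 23.5% of all genes), and M11 above for 7 and below for 7 (22% and 19.6%).

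Markers of other cell types differed between the metastasis lines and the parental line as well, and among the other lines too. Of 6 endothelial markers 4 could be tested and 3 (Pecam1, Cdh5 and Kdr) were higher in both lines, at low levels: the 6 summed to 0.274 to 0.738 CPM in the parental libraries, 3.57 to 4.27 in M11, where Pecam1 was at 3.14 ± 0.0231, and 1.26 to 2.14 in M12. Vwf, of the same list, did not rise. It read 0.283, 0.16 and 0.398 CPM in the parental libraries, 0.111, 0.0313 and 0.285 in M11 and 0.178, 0 and 0.11 in M12. Of 7 fibroblast markers 4 could be tested, of which 2 rose and 1 fell in M11 and 1 rose and 2 fell in M12. Their sum was 142 to 152 CPM in the parental libraries, 711 to 965 in M11 and 213 to 359 in M12, most of it from the collagen gene Col3a1 in M11 (37.2 ± 1.37 in parental cells, 721 ± 115 in M11 and 183 ± 80.6 in M12), while Dcn and Lum stayed below 0.1 CPM in the mean of every group. Of 10 blood and immune markers 2 could be tested: the lysosomal gene Cd68, at 7.45, 2.80 and 4.29 CPM in the parental libraries and 22.9, 69.4 and 18.4 in M12, rose in M12, and Lyz2 fell in M11. The list summed to 4.7 to 9.37 CPM in the parental libraries, 6.72 to 13.4 in M11 and 19.8 to 70.2 in M12, with Ptprc, the pan-leukocyte gene, below 0.1 CPM in the mean of every group. The 7 lung epithelial markers summed to 0.708 to 1.28 CPM in the parental libraries, 0.773 to 1.53 in M11 and 0.743 to 0.971 in M12, ranges that overlap. Lines not taken from metastases varied in these sums as well. The fibroblast list summed to 293 to 342 CPM with the empty vector and 377 to 467 with ZBTB18. The endothelial list summed to 1.19 to 1.91 CPM in the receptor line with vehicle and 1.19 to 2.03 with TGF-β1. The M11 sums of both lists lay above these. The part of these markers in the changes of the cycle genes was not tested.

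E2f2, an activating E2F, showed the largest log2 fold change of any gene of the 45 in the 7 comparisons, and the only one past 2-fold in them. Parental libraries were at 32.3, 38.5 and 41.0 CPM, M11 libraries at 25.4, 22.4 and 28.2, and M12 libraries at 13.5, 16.4 and 16.9. The 3 groups did not overlap, and the log2 fold change was -1.25 in M12 (SE 0.104, adjusted p = 2.83e-09) and -0.56 in M11 (SE 0.102, adjusted p = 0.000157). Over all 7 groups the order of its means ran from M12 through M11, the parental line (37.3 ± 4.45), ZBTB18 (44.2), the empty vector (46.9 ± 0.389) and the receptor line with vehicle (50.9) to that with TGF-β1 (55.9). Of the neighbours in that order, ZBTB18 and the empty vector overlapped, and so did the receptor groups.

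Cdk4 read 386, 428 and 386 CPM in parental cells, where M11 had 278, 275 and 258 and M12 had 231, 239 and 257, and it was lower in both (-0.56, adjusted p = 1.11e-05, and -0.72, adjusted p = 2.96e-07). Tyms read 51.5, 68.7 and 66.9 in parental cells, 43.0, 34.1 and 35.6 in M11 (-0.73, adjusted p = 1.08e-05) and 45, 44.0 and 49.0 in M12 (-0.44, adjusted p = 0.00145). Ccne2 fell by 0.50 in M11 and 0.51 in M12, Cdk2 by 0.44 and 0.37, and Ccnd2 by 0.33 and 0.30. On the rising side, Ccnd1, the cyclin D most often amplified in breast cancer, rose by 0.46 in M11 and 0.43 in M12. Cdc25c, at 34.9, 33.3 and 32.6 CPM in the parental line, stood at 46.2, 46.3 and 45.8 in M11 (0.46) and 47.3, 52.5 and 51.7 in M12 (0.59). Mki67 rose by 0.46 and 0.27, Kif20a by 0.36 and 0.50, E2f1 by 0.29 and 0.26, E2f8 by 0.29 and 0.36, and Cdc45 by 0.28 and 0.26. Against the same parental libraries, the empty vector cells also had higher Ccnd1 (0.51), Cdc25c (0.41), Mki67 (0.82), Kif20a (0.76), E2f1 (0.41), E2f8 (0.46) and Cdc45 (0.36). Their Cdk4 (-0.21), Cdk2 (-0.38) and Ccne2 (-0.28) were likewise lower, and Tyms did not pass. Ccnd2 (0.39) and E2f2 (0.33) went the other way. Apart from those of Tyms, Ccnd2 and E2f2, the shared directions listed here are thus not particular to the metastasis lines. The vector line's calls of Cdk4 and Ccne2 were kept in 5 and 7 of 14 settings, and its Cdk4 and Cdk2 had the opposite sign on the TPM scale.

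Other genes passed in 1 line and missed the threshold in the other, which alone does not show that the lines differ. In M12, Mcm2 fell by 0.67 (164 ± 28.3 to 103 ± 7.04 CPM), Cdk1 by 0.59 (314 ± 28.6 to 208 ± 24.1), Mcm5 by 0.57 and Cdt1 by 0.41, and Ccne1 rose by 0.64 (48.2 ± 11.1 to 74.9 ± 10.3). Cdc25a, Ccnb2, the APC/C activator Cdc20 and Mcm7 fell by 0.25 to 0.39 (Mcm7 had the opposite sign, 0.03, on the TPM scale), and Cdk6 rose by 0.30. In M11, Mcm6 rose by 0.42, Mcm3 by 0.38, Mcm4 by 0.31, Foxm1 by 0.27 and Top2a by 0.25, and Pcna fell by 0.24, a call kept in 8 of 14 settings. Genes past the threshold in neither direction lay between -0.21 (Cdc25a) and 0.23 (E2f3) in M11, and between -0.19 (Ccnd3) and 0.31 (E2f7) in M12. The lines are set against each other directly after the wider list.

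The counts lean on the parental libraries and on M11 replicate 3, whose G1/S median was 0.04 where M11 replicates 1 and 2 were at -0.15 and -0.18. The M11 rises numbered 7 without parental replicate 1 or 2 and 6 without M11 replicate 3, and the M12 rises 14 without parental replicate 3. With log2(TPM + 1) the median of all genes was 0.14 for M11 and 0.17 for M12, 77.4% and 78.1% of calls were higher where counts gave 51% and 49.7%, and the higher and lower cycle genes numbered 19 and 2 in M11 and 21 and 3 in M12. Calls kept under all 14 settings were those of Ccnd1, Cdc25c, Cdk4, Mcm6 (lost with chromosomes centred), Mki67 and Tyms in M11 and of Ccne1, Cdc25c, Cdk1, Cdk4, E2f2 and Kif20a in M12.

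In the wider list Cenpf was the highest in both lines (1.08 in M11, 1.13 in M12) and Cdkn1c the lowest (-1.99 and -0.99, from 0.957 ± 0.165 CPM). Rb1 rose by 0.81 and 0.88 and the primase gene Prim1 fell by 0.83 and 0.95, the latter with 99.4 ± 13.4 CPM in parental cells against 55.9 ± 7.99 (M11) and 51.5 ± 5.49 (M12). In M11, Tfdp2, a partner of E2F proteins, rose by 0.84 and Ung fell by 0.69. In M12, the centrosome kinase Nek2 rose by 0.90 and Rbl1 fell by 0.66. Of 25 other G1/S genes, 1 rose and 7 fell in M11 and 1 rose and 10 fell in M12, and of 25 other G2/M genes 4 rose and 1 fell in M11 and 8 rose and 4 fell in M12. In the DREAM, MYB and MYC group 2 rose and 3 fell in M11 and 4 rose and 3 fell in M12, and of the 10 tested inhibitors and pocket proteins 1 rose and 1 fell in M11 and 3 rose and 4 fell in M12.

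Without a replicate block, M11 and M12 differed from each other in 10 of the 45 genes (7 higher and 3 lower in M11), against 35.5% of all genes (17.7% higher, 17.8% lower). Mcm2 read 149, 149 and 213 CPM in M11 and 104, 95.0 and 109 in M12 (log2 fold change 0.73, SE 0.117, adjusted p = 5.05e-05), and Mcm5 203, 186 and 248 against 143, 117 and 140 (0.67, SE 0.114, adjusted p = 9.61e-05). Both sit in the same hexamer as Mcm3, Mcm4, Mcm6 and Mcm7, which did not pass (0.08 to 0.20), although Mcm6 passed with the replicate number as a block (0.20, adjusted p = 0.0496) and Mcm7 with chromosomes centred (0.42, adjusted p = 6.02e-05, beside 0.44 for Mcm2 and 0.39 for Mcm5 in that fit). E2f2 was 0.70 higher in M11 (adjusted p = 2.38e-05), the licensing factor Cdt1 0.52 (adjusted p = 0.00025), Cdk1 0.40 (adjusted p = 0.0026), Foxm1 0.32 and Cdc20 0.20. Lower in M11 were Ccne1, at 55.2, 42.2 and 59.9 CPM against 84.9, 64.3 and 75.6 (-0.52, adjusted p = 0.00438), Cdk6 (-0.36) and Tyms (-0.29). The remaining genes ran from -0.33 for E2f7 (adjusted p = 0.0674) to 0.23 for Ccnb2 (adjusted p = 0.0548). Same-numbered libraries of M11 and M12 deviated together, and with the replicate number as a block E2f7 (adjusted p = 0.0426) and Ccnb2 (adjusted p = 0.0371) passed. The libraries of the lines did not overlap for any of the 10 genes, and the calls of all but Cdc20, Foxm1 and Tyms were kept under all 14 settings, those of Cdk1 and Cdk6 being lost with chromosomes centred. Over all 45, M11 lay above without overlap for 9 genes and below for 4, against 20% of all genes each way. In the wider list Cdkn1b (0.54), the helicase partner Gins3 (0.51) and Rbl1 (0.51) were highest in M11 relative to M12, and Cdkn1c (-1.01), Lin54 (-0.66) and Myc (-0.60) lowest. By class, 3 of 10 inhibitors and pocket proteins were higher in M11 and 2 lower, 3 of 25 other G1/S genes higher and 3 lower, and 4 of 12 genes of the DREAM, MYB and MYC group higher and 2 lower. Of 25 other G2/M genes 2 were higher in M11 and 5 lower, where 3 of the 18 G2/M genes were higher and 0 lower.

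Several of these genes moved with the chromosome they lie on. Whole chromosomes stood off 0 in some comparisons, as the median log2 fold change of their tested genes shows: with ZBTB18 against the vector, chromosome 10 was at -0.27 (726 genes, 36.9% lower and 5.37% higher) and chromosome 19 at 0.28 (540 genes, 41.1% higher and 4.81% lower). Cdk1, Cdk2 and Cdk4 lie on chromosome 10 of build mm10, at 69335146 to 69352938, 128697939 to 128705031 and 127063534 to 127067920, and their changes differed from that median by -0.10, -0.03 and -0.04. Kif11 lies on chromosome 19 at 37376403 to 37421859, and its change differed from the median by 0.16. Rrm2 on chromosome 12 and Tyms on chromosome 5, whose medians were -0.15 and -0.10, differed from them by -0.53 and -0.45, and Ccne1 on chromosome 7 (0.03) by 0.72.

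**Figure D4:**
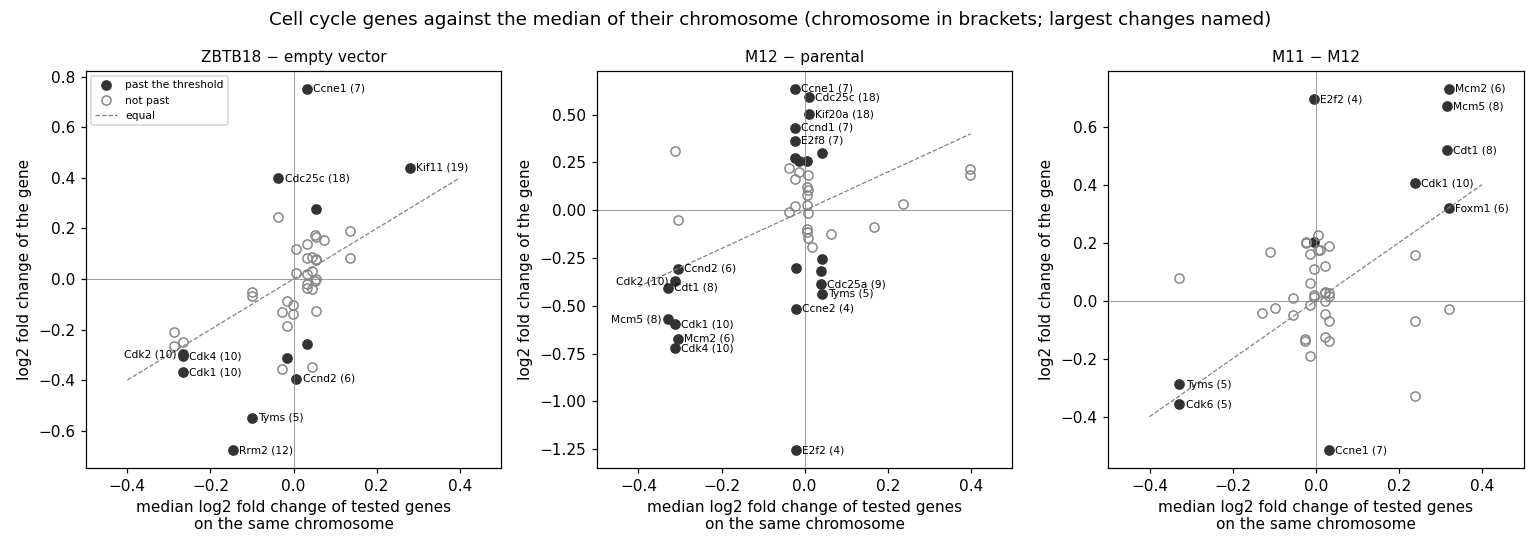
Log2 fold change of each of the 45 genes (vertical) against the median log2 fold change of all tested genes on its chromosome (horizontal) in 3 comparisons, with the line of equality dashed and the chromosome in brackets. Cdk2 and Cdk4 lie near the line with ZBTB18, and Cdk6, Tyms and Foxm1 lie near it for M11 minus M12, whereas Ccne1 and E2f2 stand far from it.

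The metastasis lines showed the same kind of offset. In M12 against the parental line, chromosomes 6, 8 and 10 were at -0.31, -0.33 and -0.31 and chromosome 1 at 0.40, and in M11 chromosome 1 was at 0.40 and chromosome 5 at -0.28. Mcm2 (chromosome 6, 88883474 to 88898780), Mcm5 (chromosome 8, 75109569 to 75128439), Cdt1 (chromosome 8) and Cdk1, Cdk2 and Cdk4 (chromosome 10) fell in M12, and Mcm3 and Mcm6 (chromosome 1) rose in M11. Mcm2 and Cdk4 differed from their chromosome medians by -0.37 and -0.41 in M12. Not every gene followed its chromosome there: E2f7 (chromosome 10) was at 0.31 and Foxm1 (chromosome 6) at -0.05, neither past the threshold. Between M11 and M12, chromosomes 6, 8 and 10 were at 0.32, 0.32 and 0.24 and chromosome 5 at -0.33. E2f2 lies on chromosome 4 at 136172394 to 136196057, with a chromosome median of -0.02 in M12 against the parental line and 0.00 between the metastasis lines.

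A fit with each chromosome centred in each library, added after the data had been seen, kept 6 of the 12 calls for ZBTB18 against the vector (Ccnd2, Ccne1, Cdc25c, Rrm1, Rrm2 and Tyms) and not those of Ccne2, Cdk1, Cdk2, Cdk4, E2f1 and Kif11. It kept 17 of 19 in M11 (not Mcm3 and Mcm6), 18 of 23 in M12 (not Ccnd2, Cdk2, Cdk6, Cdt1 and Mcm5) and 6 of 10 between M11 and M12 (not Cdk1, Cdk6, Foxm1 and Tyms, the last with a log2 fold change of 0.05 in place of -0.29). Calls gained in that fit were those of Cdc6 and Kif20a for ZBTB18 against the vector, E2f3 in M11, Ccna2 and E2f7 in M12, Ccnb2 for the empty vector, and Ccnb2, Cdk2, Mcm7, E2f7 and Kif11 between M11 and M12. All 32 calls for the empty vector against the parental line and all 19 for the receptor line against ZBTB18 were kept. Why chromosomes differ between these lines was not tested. Of the 45 genes, 25 overlap another annotated gene, among them Cdk4 and Cdk2, which overlap Tspan31 and Pmel on the opposite strand. The strand setting of the counting is not given in the sources used here.

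Over the 7 groups the class medians of deviation from each gene's overall mean ran for G1/S from -0.17 in M12 to 0.26 with the empty vector, and for G2/M from -0.11 in M12 to 0.17 with ZBTB18. Of the 27 G1/S genes, 24 were above their own mean with the empty vector, 21 with ZBTB18 and 2 in M11. Replicates of a group varied by class as well: 21 of 27 G1/S genes were highest in parental replicate 3 and 20 of 27 in M11 replicate 3. Of the 18 G2/M genes, 13 were highest in replicate 1 of the receptor line with vehicle and 15 in replicate 1 with TGF-β1, and 0 were highest in replicate 3 of either, nor in replicate 3 with ZBTB18. After group means were subtracted, the median Pearson correlation over 21 libraries was 0.33 for 351 pairs of G1/S genes, 0.37 for 153 pairs of G2/M genes and 0.07 for 486 mixed pairs, a description of libraries that share depth and culture. Without that subtraction the medians were 0.27, 0.27 and 0.20. Measured against its class median over the 21 libraries, Cdc6 followed the G1/S class most closely (r = 0.952), with Cdc25a at 0.908 and Mcm3 and Rrm1 at 0.883, whereas Cdk2 (-0.406) and Cdk6 (-0.413) ran opposite to it.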

How the data were processed

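Polyadenylated RNA of 21 mouse E0771 libraries, 3 in each of 7 groups taken with their replicate numbers from the sample titles, was sequenced from a stranded kit, per the labels' protocols. The authors deposited RSEM expected counts per gene, not normalised, which were rounded and used for every test, and TPM, scaled for transcript length within each library. The submitters' processing notes name build mm10, RSEM, STAR 2.7.1a, Trim Galore and GATK 4.1.2.0. The annotation release and counting strand are not given in the sources used here, and 99.83% of identifiers matched GENCODE vM21, used for positions. RSEM shares reads between similar genes: 2 of the 45 genes, Top2a and Foxm1, had values that were not whole. No spike-in reads were present, so levels are relative to each library's total.

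In R 4.3.3, edgeR 4.0.16 was run with TMM scaling, its filter on low counts and a robust quasi-likelihood F-test with 1 mean per group over 21 libraries (14 residual degrees of freedom), two-sided and with p adjusted by Benjamini-Hochberg over 15432 genes at 0.05. SE is the absolute log2 fold change over the square root of F. The depth, 24208564 to 90518866 counts, left each of the 45 genes at least 454 counts in every library, so the spread between replicates sets the precision. In a simulation of ZBTB18 against empty vector on 15432 genes the procedure recovered 31.3% of 1.5-fold, 98.5% of 2-fold and 100% of 4-fold changes. It gave 159 calls, where the data gave 4388, and used 1 set spread for all genes. These shares therefore do not carry over to the 45 genes.

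Alternatives were DESeq2 1.42.0, its size factors, other filters, the 6 libraries alone, limma 3.58.1 on log2 TPM with a pseudocount of 1 or 0.1, a replicate block, each library left out and, added after seeing the data, chromosome centring. Same-numbered libraries deviated together for TGF-β1 and vehicle (r = 0.302, 0.141 and 0.351) and for M11 and M12 (0.167, 0.292 and 0.166), which comes from the data and not from the labels. In other comparisons at least 1 pair was at 0.1 or below.

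The 45 genes and the lists were chosen with earlier results of these data known. All 45 are accounted for. Per-library values went to those with the largest fold changes, up to 8 a comparison, and the wider list of 74 gave up to 3 higher and 3 lower genes a comparison.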

Additional observations from a re-analysis of the deposited data

Results flagged for a closer look

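Each metastasis line was compared with the same parental libraries. The effects of the 2 lines differed for 10 of the 45 genes in a direct test of M11 against M12 (edgeR without a replicate block, adjusted p from 2.38e-05 to 0.0391). Of all genes, 35.5% passed that test. The log2 difference, M11 minus M12, was 0.73 for Mcm2, 0.70 for E2f2, 0.67 for Mcm5, 0.52 for Cdt1, 0.40 for Cdk1, 0.32 for Foxm1 and 0.20 for Cdc20, all with every M11 library above every M12 library. It was -0.52 for Ccne1, -0.36 for Cdk6 and -0.29 for Tyms, with every M11 library below. With chromosomes centred, Cdk1 (0.18), Cdk6 (-0.01), Foxm1 (0.03) and Tyms (0.05) did not pass. For Ccne1 the parental line (48.2 ± 11.1 CPM) lay near M11 (52.4 ± 9.13) and M12 stood at 74.9 ± 10.3. For Mcm2 the parental line (164 ± 28.3) also lay near M11 (170.4 ± 36.5), with M12 at 103 ± 7.04. Foxm1 showed the reverse, with M12 (155 ± 16.2) near the parental line (160 ± 19.7) and M11 at 193 ± 21.3. E2f2 was lower than parental in both lines.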

How the results depend on the processing

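Over the settings chosen at the outset, calls of single genes held 1380 times, were lost 222 times and turned in sign 8 times. On the 6 libraries alone, 8 genes were higher and 15 lower with ZBTB18, 4 higher in M11, 3 higher and 9 lower in M12, and 1 (E2f1) lower with TGF-β1. That fit estimates the spread from fewer libraries. On log2(TPM + 1) and on log2(TPM + 0.1), 3 were lower with ZBTB18, 19 higher and 2 lower in M11, 21 higher and 3 lower in M12 and 0 lower with empty vector, and on log2(TPM + 1) 10 were lower in the receptor line. TPM turned Mcm7 in M12 (0.0325 and 0.0329) and, with empty vector, Cdk2 (0.0219 and 0.0227), Cdk4 (0.117 and 0.117) and Birc5 (0.257 and 0.258). The cause was not tested. DESeq2 gave 1 lower gene with TGF-β1, as did the replicate block. Chromosome centring left 5 lower with ZBTB18 and turned Tyms between M11 and M12 (0.0546).

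Leaving out 1 library at a time gave 3 to 7 lower genes with ZBTB18, 6 to 13 higher in M11, 6 to 14 higher in M12 and 2 to 4 lower with empty vector. With a replicate block M11 was higher than M12 in 9 genes and lower in 4, and apart from the TGF-β1 count the block moved none by over 1.5 times. For ZBTB18 against empty vector, where the numbers do not pair the libraries (r = 0.00488, -0.00123 and -0.0147, and 0 of 3 correlated best with their own number), the block gave 5 higher and 12 lower. Depth does not limit these genes. With 3 libraries a group, a gene short of the threshold may still differ.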
